A study of Danio rerio with 23 samples.

Results

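The genes of the extracellular matrix were followed across all 23 libraries of a zebrafish study of gut endocrine cell differentiation. They were chosen by a rule on symbols. It named every collagen chain, thrombospondin, matrilin and laminin chain, together with fn1a, fn1b, lum, dcn, postnb, sparc and cilp2. The rule was set with earlier results of these data known, so counts of these genes beside all genes are descriptions. The rule took 91 of 31902 identifiers. They were 15 chains of fibrillar collagens, 12 of fibril-associated (FACIT) collagens, 12 of types VI, VII and XXVIII, 11 of network-forming types, 4 of transmembrane types and 3 of multiplexins, with 14 laminin chains, 8 thrombospondins, 4 matrilins and 8 other genes. The symbol POSTN stood at 2 identifiers (ENSDARG00000043806 and ENSDARG00000104267) and nothing showed which is postnb, so both were kept. Symbols in capitals come from a name table that gives no paralogue letter, and 20 of the 91 share their name with another identifier. How alike the identifiers of a shared name are was not examined. Reads that map to both may be lost or misassigned, so their values are uncertain.

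Collagens are trimers of alpha chains. The fibrillar types I, II, III, V and XI form the cables of connective tissue and cartilage, FACIT collagens such as types IX, XII and XIV sit on those cables, and type IV forms the sheet of basement membranes. Laminins are trimers of an alpha, a beta and a gamma chain, and they make the other sheet of the basement membrane on which every epithelium rests. Fibroblasts and other mesenchymal cells make most fibrillar collagen, whereas epithelial cells, the gut lining among them, make laminins and several basement membrane collagens themselves. Thrombospondins, periostin, fibronectin and SPARC are secreted proteins that bind cells, collagen or both, and lumican and decorin are small proteoglycans that coat collagen fibrils.

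Of the 23 libraries, 16 came from endodermal cells that carried sox17:dsred, sorted from trunks of AB embryos at 52 hours post fertilization (hpf). All 16 had been heat-shocked at 38 and 48 hpf, the controls included, and each was sorted from about 150 embryos. They were 3 controls, which carried sox17:dsred but no hsp70l transgene, and 3 Ascl1a, 4 Neurod1, 3 Neurod1delUCE and 3 Neurod1delECD libraries. In these 4 groups the heat shock promoter hsp70l drove eGFP-2A and the named factor in the whole embryo. No group carried hsp70l with eGFP alone. In comparisons with control, the factor therefore cannot be told apart from the transgene and its eGFP. The 2 deleted forms of Neurod1 lack a conserved domain of the protein (ECD) or its shorter core (UCE). The other 7 were pax6b:GFP+ enteroendocrine cells (EECs), the hormone cells of the gut, sorted from dissected guts of about 200 larvae at 4 days post fertilization, 3 from wild type (WT) and 4 from homozygous neurod1delUCE mutants of 1 line. The study describes its EEC samples as independent preparations, but nothing states that replicates of either experiment came from separate clutches. The p-values therefore measure the spread between these samples, which may be technical.

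Library totals ranged from 8364374 to 22301304 counts. The reading frame of ascl1a was counted at 27.99 to 259.8 CPM (counts scaled to library size, CPM, with TMM normalization) in the Ascl1a libraries and at up to 2.74 CPM in the other endodermal libraries. The region of neurod1 carried by the transgenes had 0.119 to 1.102 CPM in controls, 19.1 to 53.4 CPM with Neurod1 and 3.96 to 7.36 CPM with Neurod1delECD. The 3 Neurod1delUCE libraries had 1205, 1.55 and 1.64 CPM, so replicates 2 and 3 lay little above the highest control. Ascl1a libraries 1 to 3 carry no neurod1 transgene, yet this region had 25.4, 175 and 21.8 CPM in them. The reading frame of ascl1a ranked them in the same order (33.1, 259.8 and 27.99 CPM). The count of this region can therefore not be taken as the level of neurod1 there, and the reason was not tested. The 14 endoderm and gut markers summed to 2646 to 7749 CPM in every library. The 16 EEC markers summed to 33621 to 89625 CPM in EECs against 39.0 to 929 CPM in the endodermal libraries. Their sum was 41.7, 39.0 and 115 CPM in controls 1 to 3 and 388, 450 and 221 CPM in Neurod1delUCE 1 to 3. It was 202, 47.1 and 69.8 CPM with Ascl1a, 333 to 929 CPM with Neurod1 and 264, 314 and 143 CPM with Neurod1delECD. Why the transgene region was so low in Neurod1delUCE 2 and 3 was not tested. The endodermal libraries also held RNA of other tissues. Their 20 skeletal muscle markers summed to 98.2 to 25573 CPM, highest in control 3, against 10.2 to 53.8 CPM in EECs, and their 11 blood and immune markers to 205 to 3726 CPM against 0.819 to 2.79 CPM.

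All 91 genes were counted in at least 1 endodermal library. Together they took 0.720%, 0.297% and 0.530% of the counts in controls 1 to 3. The share was 0.293%, 0.280% and 0.146% with Ascl1a and 0.187%, 0.317%, 0.355% and 0.238% with Neurod1. With Neurod1delUCE it was 0.916%, 0.234% and 0.107%, and with Neurod1delECD 0.356%, 0.249% and 0.185%. Every Ascl1a library therefore lay below every control, whereas the Neurod1 range reached into the control range and Neurod1delUCE held both the highest and the lowest endodermal library. In EECs the share was 0.0361%, 0.109% and 0.05002% in WT and 0.150%, 0.0154%, 0.157% and 0.0520% in mutants. Every EEC library thus lay below every endodermal control, but the ranges of EEC and endodermal libraries overlapped. The EEC libraries at 0.109%, 0.150% and 0.157% lay above the lowest endodermal library (0.107%), and the others lay below it.

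Single libraries set much of this spread. Of the 79 matrix genes that passed the filter on low counts in the endodermal fit, 24 were highest in Neurod1delUCE 1 and 14 in control 1, and 25 were lowest in Neurod1delUCE 3, 20 in Ascl1a 1 and 19 in Ascl1a 3. The 3 controls were lowest for 0, 1 and 0 genes. Marker lists of several tissues also differed between these libraries, and no association with the matrix genes was computed. The endothelium list was highest in Neurod1delUCE 1 (451 CPM) and lowest in Neurod1delUCE 3 (22.6 CPM) among endodermal libraries. The chondrocyte and notochord list was highest in Neurod1delUCE 1 too (679 CPM). Skeletal muscle markers were highest in control 3, and blood and immune markers in Ascl1a 1 (3726 CPM). The 14 fibroblast and mesenchyme markers, among them pdgfra, twist2, PRRX1, meox1 and tcf15, summed to 144, 59.3 and 109 CPM in controls 1 to 3, to 17.4 to 53.3 CPM with Ascl1a, 32.8 to 81.9 CPM with Neurod1, 16.8 to 253 CPM with Neurod1delUCE and 29.9 to 99.0 CPM with Neurod1delECD. Of the 14, 13 or 14 had a count in each control and at least 12 in every other endodermal library. The part of these marker lists in the results on matrix genes was not tested. In sorted bulk samples, fewer cells of a type and less RNA per cell cannot be told apart.

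**Figure D1:**
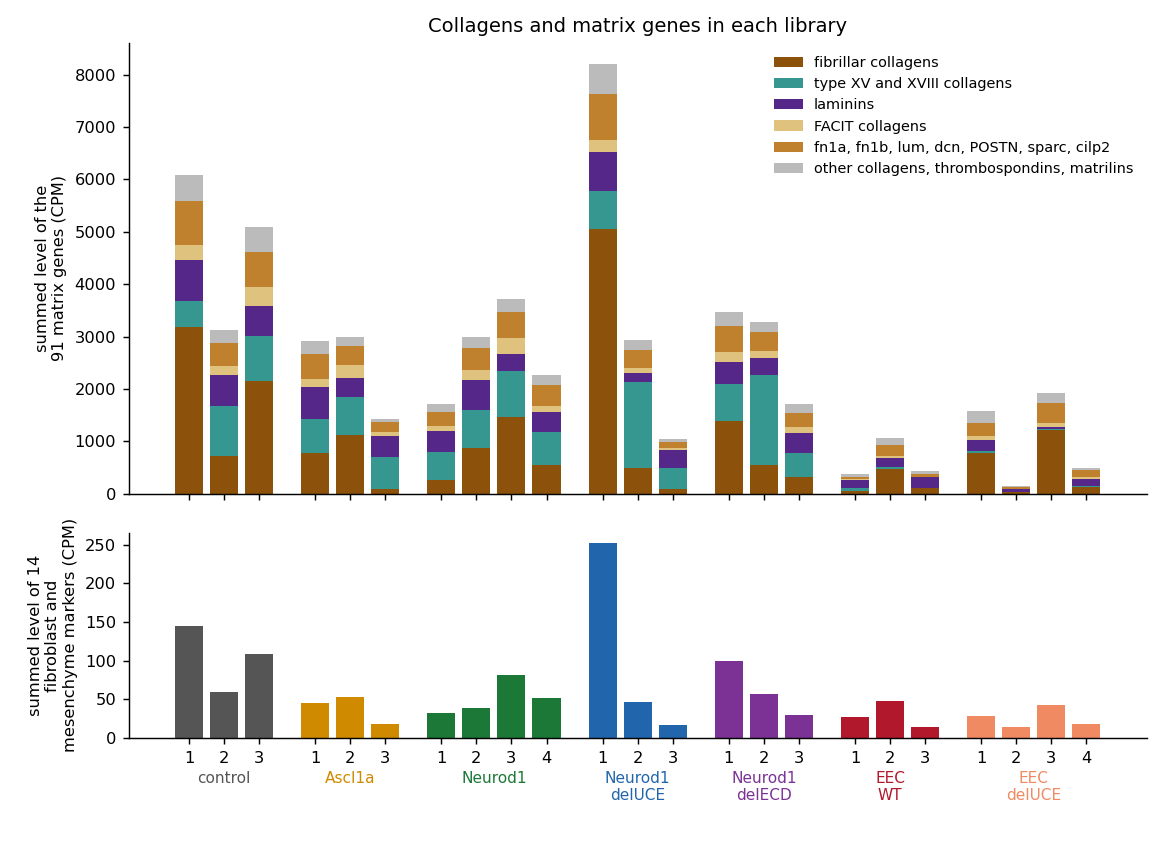
Summed CPM of the 91 matrix genes in each of the 23 libraries, stacked by class, above the summed CPM of the 14 fibroblast and mesenchyme markers in the same libraries. Neurod1delUCE 1 holds the highest sum in both panels, 8199 CPM of matrix genes and 253 CPM of markers, and EEC libraries hold 149 to 1921 CPM of matrix genes.

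The first question was whether an induced factor altered the matrix genes of the endodermal preparations. No matrix gene passed the threshold, a Benjamini-Hochberg false discovery rate (FDR) of at most 0.1 in edgeR's quasi-likelihood test, with any of the 4 factors, although most stood below the control level. The 4 comparisons use the same 3 controls, so a high control library moves all of them.

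With Neurod1, the median log2 fold change of the 79 tested matrix genes was −0.77, against 0.00 over all 18911 genes tested, and 55 of 79 (69.6%) had a value below 0, against 49.9% of all genes. edgeR called 0 of the 79, where it called 0.0423% of all genes. At an unadjusted p under 0.05, 15 were lower and 0 higher, where 1.94% of all genes were lower and 2.31% higher. DESeq2 called 3 (background 0.557%) and voom with quality weights 0 (background 0.0635%). For 22 genes every Neurod1 library lay below every control, where 3.99% of all genes did so, and the opposite held for 0 (background 4.12%).

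With Ascl1a, the median was −0.90 against −0.02 over all genes, and 60 of 79 (75.9%) lay below 0 against 50.9%. edgeR called 0 of the 79 (background 0.0159%). At an unadjusted p under 0.05, 19 were lower and 0 higher (background 3.65% and 2.46%), DESeq2 called 6 (background 0.453%) and voom 0 (background 0.0106%). For 25 genes all Ascl1a libraries lay below all controls (background 7.76%) and for 0 above them (background 6.35%).

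The deleted forms gave values of the same sign. With Neurod1delUCE, the median was −0.55 against 0.02 over all genes, 61 of 79 lay below 0 (background 48.6%), edgeR called 0 (background 0.0582%), and 8 were lower and 0 higher at an unadjusted p under 0.05 (background 3.39% and 3.72%). DESeq2 called 1 (background 1.18%) and voom 0 (background 0.037%). Groups did not overlap for 7 lower genes (background 5.4%), a share of 8.86% that is close to the background, and for 0 higher ones (background 4.66%). That median depends on single libraries of the group. It was −1.93 without Neurod1delUCE 1, −0.38 without Neurod1delUCE 2 and −0.10 without Neurod1delUCE 3. With Neurod1delECD, the median was −0.88 against −0.03, 69 of 79 lay below 0 (background 51.8%), edgeR called 0 (background 0.0423%), and 7 were lower and 0 higher at an unadjusted p under 0.05 (background 2.66% and 3.47%). DESeq2 (background 0.396%) and voom (background 0.19%) called 0. Groups did not overlap for 17 lower genes (background 8.1%) and for 0 higher ones (background 9.57%).

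**Figure D2:**
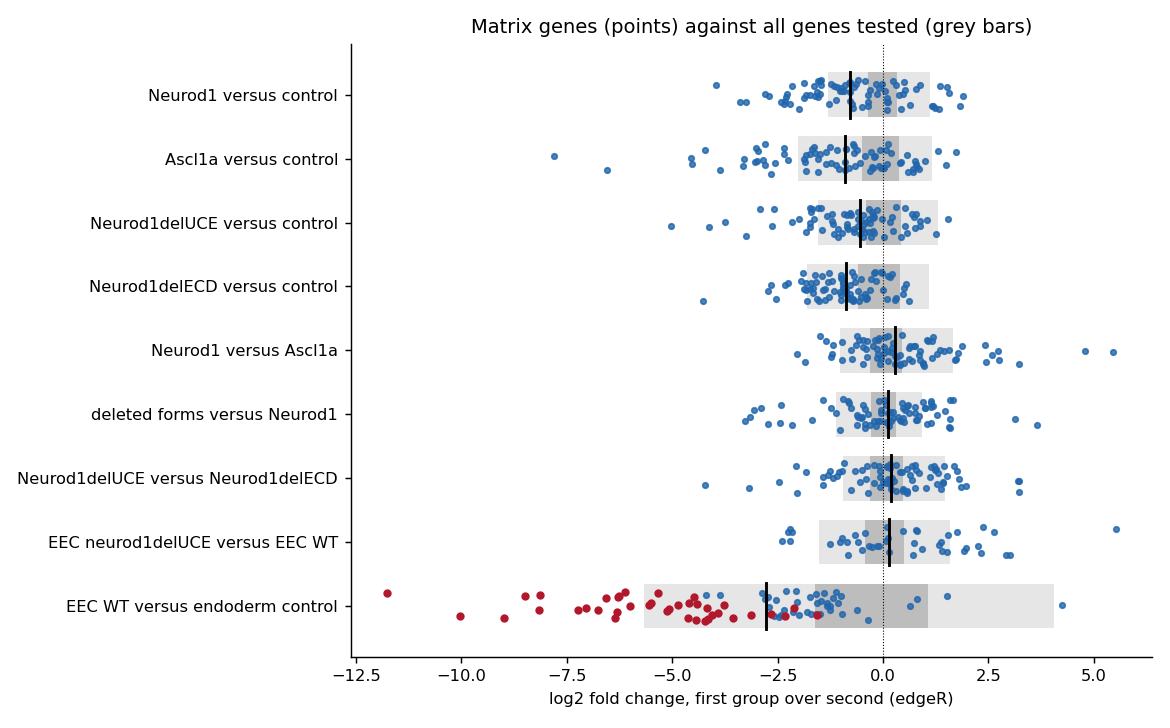
Log2 fold changes of the tested matrix genes (points) in the 9 comparisons, with the median over them (black line) and the middle 50% and 90% of all genes tested (grey bars); red points passed the threshold. The medians against control lie between −0.90 and −0.55, and red points occur only between wild-type EECs and endodermal controls.

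Type I collagen, the main collagen of skin, bone and tendon, took most of the reads of the fibrillar class in the controls. Its chain col1a1a stood at 1610, 189 and 742 CPM in controls 1 to 3, at 246, 424 and 25.4 CPM with Ascl1a and at 52.9, 304, 429.6 and 135 CPM with Neurod1. It was at 2571, 224 and 57.6 CPM with Neurod1delUCE and at 749.9, 206 and 89.9 CPM with Neurod1delECD. Controls alone spanned more than the distance between most groups, and all 4 groups overlapped the controls. The fitted log2 difference was −1.87 (SE 1.13) with Neurod1 and −1.83 (SE 1.24) with Ascl1a, with FDRs of 1.00 and 0.823.

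The partner chain col1a2 was at 597, 143 and 322 CPM in controls and at 33.1, 81.0, 85.9 and 64.1 CPM with Neurod1. Here the Neurod1 libraries did not overlap the controls, yet the log2 difference of −2.42 (SE 1.03) did not pass the test (FDR 1.00). The duplicate col1a1b gave −2.21 (SE 1.099) with Neurod1 and −1.83 (SE 1.20) with Ascl1a. Type V collagen joins type I fibrils and limits their width, and its chain col5a1 stood at 249, 135 and 244 CPM in controls against 14.6, 57.4 and 5.34 CPM with Ascl1a. These groups did not overlap, and the log2 difference was −2.99 (SE 1.08, FDR 0.795).

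Type XIV collagen had the smallest p of the FACIT class with Neurod1 and with Ascl1a. It binds other fibrils, and in zebrafish embryos col14a1a is known from the epidermis. It stood at 135, 134 and 198 CPM in controls, at 39.5, 77.8, 57.2 and 39.0 CPM with Neurod1 and at 87.0, 71.9 and 57.9 CPM with Ascl1a. With Neurod1delUCE it was at 69.3, 68.7 and 23.5 CPM and with Neurod1delECD at 99.8, 118 and 55.2 CPM. All 13 libraries with a factor thus lay below all 3 controls, a pattern whose share over all genes was not computed. In edgeR's fit the log2 difference was −1.55 (SE 0.38, FDR 0.403) with Neurod1, −1.08 (SE 0.41, FDR 0.800) with Ascl1a, −1.55 (SE 0.41, FDR 0.332) with Neurod1delUCE and −0.79 (SE 0.40, FDR 0.750) with Neurod1delECD. DESeq2 called the gene with Neurod1 (−1.56, FDR 0.0609) and with Neurod1delUCE (−1.52, FDR 0.0799).

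**Figure D3:**
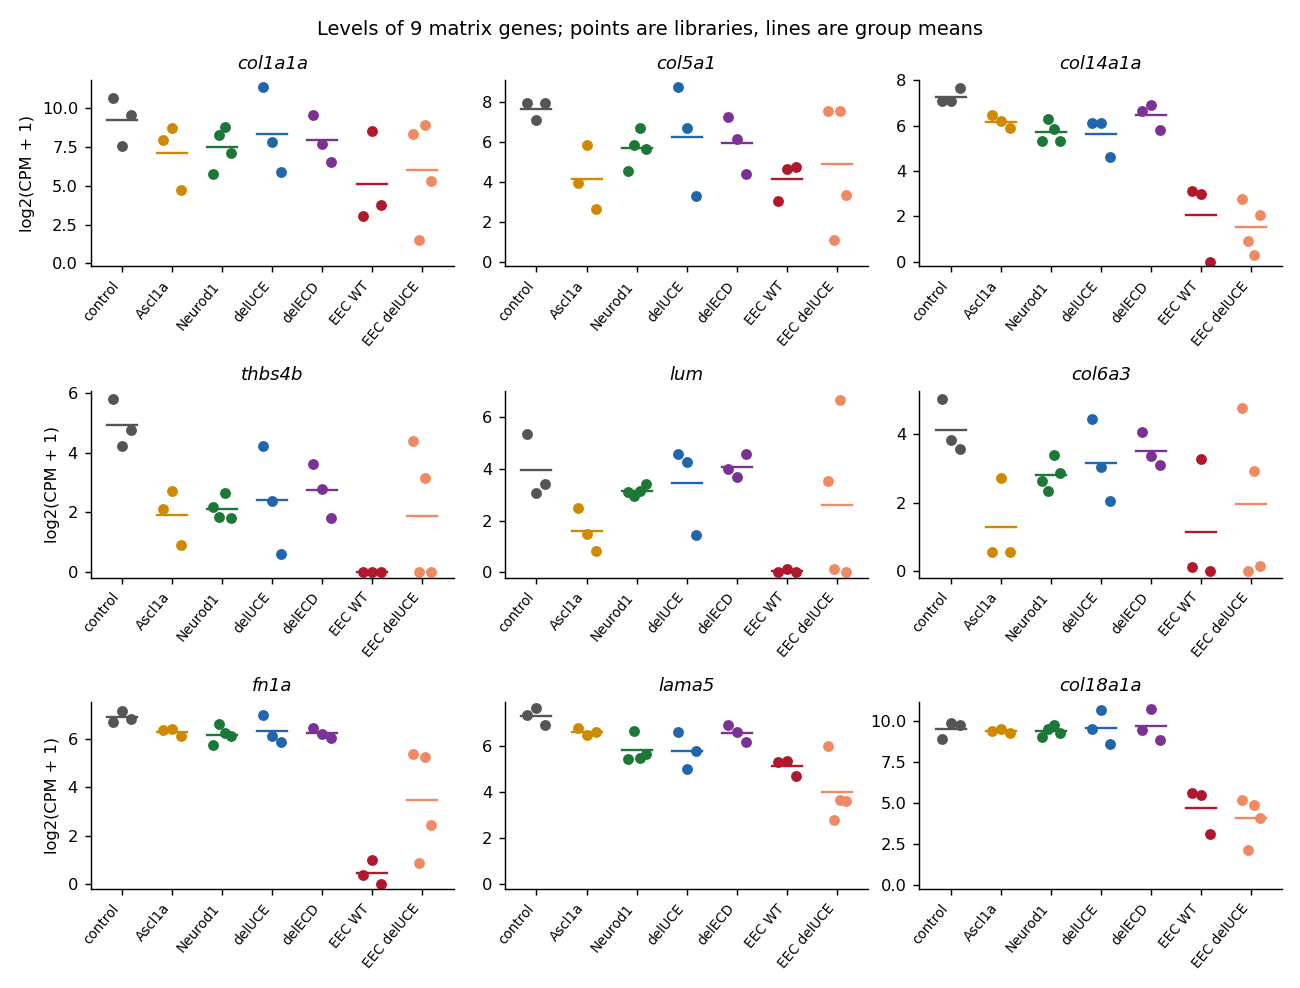
Log2(CPM + 1) of 9 matrix genes in the libraries of each group, with points for libraries and lines for the mean of the log2 values. The 3 controls lie above all other endodermal libraries for col14a1a, thbs4b and lama5, and the groups overlap for col18a1a.

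Thrombospondin 4b is a protein of muscle attachment sites and tendons in zebrafish. Its gene thbs4b stood at 54.1, 17.8 and 26.3 CPM in controls, at 3.47, 2.60, 5.20 and 2.48 CPM with Neurod1 and at 3.33, 5.51 and 0.842 CPM with Ascl1a. The deleted forms stood at 17.6, 4.19 and 0.519 CPM (Neurod1delUCE) and at 11.1, 5.92 and 2.48 CPM (Neurod1delECD). The highest of these, Neurod1delUCE 1, lay just under the lowest control, so no group overlapped the controls. The log2 difference was −3.24 (SE 0.85, FDR 0.526) with Neurod1, −3.30 (SE 0.96, FDR 0.795) with Ascl1a, −2.15 (SE 0.91, FDR 0.644) with Neurod1delUCE and −2.33 (SE 0.91, FDR 0.750) with Neurod1delECD. DESeq2 called it with Neurod1 (−3.25, FDR 0.0229) and Ascl1a (−3.33, FDR 0.0647), and edgeR did so for Neurod1 when only the Neurod1 and control libraries entered the fit (FDR 0.0871). The paralogue THBS4 was at 1.13 to 1.84 CPM in controls and at 0 to 0.562 CPM with Ascl1a.

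Type VI collagen forms beaded microfibrils around muscle and connective tissue cells from 3 different chains. Its chain col6a2 stood at 44.2, 23.99 and 17.3 CPM in controls, at 4.41, 7.04 and 0.562 CPM with Ascl1a and at 5.40, 4.27, 8.44 and 5.08 CPM with Neurod1. The Ascl1a and Neurod1 libraries lay below all controls for this chain. With Ascl1a, edgeR's log2 differences were −3.04 (SE 1.09) for col6a1, −2.80 (SE 0.86) for col6a2, −3.01 (SE 0.89) for col6a3 and −3.87 (SE 1.15) for col6a4a, each with an FDR of 0.795. DESeq2 called col6a3 (−3.05, FDR 0.0722) and col6a4a (−3.93, FDR 0.0539). With Neurod1, col6a2 gave −2.30 (SE 0.76, FDR 0.872), and with Neurod1delUCE the chain overlapped the controls at 25.5, 10.6 and 1.38 CPM.

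Among the proteoglycans, lum stood at 39.2, 7.30 and 9.70 CPM in controls and at 4.52, 1.77 and 0.749 CPM with Ascl1a. The groups did not overlap, with a log2 difference of −2.97 (SE 0.85, FDR 0.795), and DESeq2 called the gene (−2.99, FDR 0.0664). With Neurod1 it was at 7.63, 6.71, 7.70 and 9.74 CPM, which overlapped the controls. Decorin (dcn) stood at 178, 24.9 and 68.1 CPM in controls against 3.74 to 18.5 CPM with Ascl1a and 8.56 to 29.7 CPM with Neurod1.

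Fibronectin, which cells bind through integrins, showed a small difference of the same sign in all 4 comparisons with control. Its gene fn1a stood at 103, 143 and 114 CPM in controls, 53.3, 96.1, 73.7 and 68.4 CPM with Neurod1, 81.1, 83.5 and 68.0 CPM with Ascl1a and 86.1, 72.2 and 65.2 CPM with Neurod1delECD. Those 3 groups lay below the controls, whereas Neurod1delUCE overlapped them at 125, 68.3 and 58.2 CPM. The log2 differences were −0.73 (SE 0.28, FDR 1.00), −0.61 (SE 0.30, FDR 0.802), −0.70 (SE 0.30, FDR 0.750) and −0.53 (SE 0.30, FDR 0.787) in the order Neurod1, Ascl1a, Neurod1delECD and Neurod1delUCE. The paralogue fn1b stood at 42.8 to 102 CPM in controls and overlapped with each group but Neurod1delECD, which stood at 17.1 to 33.2 CPM.

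The 2 POSTN identifiers differed in pattern. ENSDARG00000104267 stood at 219, 134 and 234 CPM in controls and at 52.3 to 119.9 CPM with Neurod1, below all controls. ENSDARG00000043806 stood at 28.9, 10.3 and 23.3 CPM in controls and at 17.8, 72.2, 34.7 and 19.3 CPM with Neurod1, with a log2 difference of 0.79 (SE 0.53, FDR 1.00). Periostin is a matricellular protein of connective tissue. SPARC, a collagen-binding protein that many cell types secrete, stood at 66.5 to 223 CPM in controls and at 102 to 187 CPM with Neurod1, a log2 difference of −0.01 (95% interval −1.12 to 1.09).

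Several genes of low count stood apart with Ascl1a. The transmembrane collagen gene col23a1b was at 0.955, 2.09 and 1.61 CPM in controls and at 0.119, 0.0612 and 0 CPM with Ascl1a, where 2 reads were counted in all 3 libraries. The mean level of the controls was 27.4 times that of the Ascl1a group, with a counting interval of 7.595 to 227. DESeq2 called the gene (FDR 0.0722) and edgeR did not (FDR 0.795). The cartilage layer gene cilp2 had no read with Ascl1a and stood at 4.41, 0 and 1.67 CPM in controls, which overlap. DESeq2 called cilp2 (FDR 0.0982) and edgeR did not (FDR 0.795). In the other direction, col7a1, the anchoring fibril collagen of skin, gave a log2 value of 1.73 (SE 1.16) and col8a2, a short-chain network collagen, 1.49 (SE 1.32). Each came from Ascl1a 1 alone (20.7 and 6.07 CPM, against 0.184 to 0.979 CPM in Ascl1a 2 and 3), and without that library the values were −1.32 and −1.72.

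The 14 laminin chains together summed to 782, 599 and 573 CPM in controls, to 366 to 604 CPM with Ascl1a, to 331 to 579.9 CPM with Neurod1, to 165 to 737 CPM with Neurod1delUCE and to 320 to 425 CPM with Neurod1delECD. The Ascl1a, Neurod1 and Neurod1delUCE ranges overlapped the controls, and all 3 Neurod1delECD libraries lay below them. The alpha chain lama5, which zebrafish need for intact skin and fin fold epithelium, had the smallest p of the laminin chains with Neurod1. It stood at 161, 202 and 121 CPM in controls, at 42.9, 98.4, 43.5 and 49.98 CPM with Neurod1 and at 110.0, 87.3 and 96.6 CPM with Ascl1a.

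With Neurod1delUCE, lama5 was at 95.7, 30.6 and 54.2 CPM, and with Neurod1delECD at 118, 97.7 and 70.8 CPM. All 13 libraries with a factor lay below all 3 controls, as for col14a1a and thbs4b. The share of all genes with this pattern was not computed. edgeR's log2 difference was −1.48 (SE 0.38, FDR 0.457) with Neurod1, −0.71 (SE 0.41, FDR 0.808) with Ascl1a, −1.44 (SE 0.41, FDR 0.388) with Neurod1delUCE and −0.78 (SE 0.41, FDR 0.750) with Neurod1delECD. DESeq2 called lama5 with Neurod1 (−1.48, FDR 0.0745). The beta chain lamb2l stood at 18.1, 19.03 and 17.5 CPM in controls and at 4.39, 9.22, 5.69 and 4.36 CPM with Neurod1, a log2 difference of −1.63 (SE 0.49, FDR 0.722) between groups that did not overlap.

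The chains that zebrafish combine in the first laminin trimer of the notochord sheath, lama1, LAMB1 and lamc1, overlapped between controls and Neurod1. For LAMB1 (ENSDARG00000101209), the controls stood at 244, 135 and 147 CPM and the Neurod1 libraries at 104, 204, 71.2 and 122 CPM, a log2 difference of −0.50 (95% interval −1.29 to 0.30). lama2, the alpha chain of muscle basement membrane, had few reads. It was at 5.80, 1.13 and 3.99 CPM in controls and at 0.511, 0 and 0 CPM with Neurod1delECD, a fitted log2 difference of −4.27 (SE 1.55, FDR 0.750).

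The multiplexin col18a1a, a heparan sulphate collagen of epithelial and vascular basement membranes, took more reads than any other basement membrane gene of the list. It stood at 488, 956 and 855 CPM in controls, 664, 733 and 614 CPM with Ascl1a and 535, 728, 879 and 616 CPM with Neurod1. These libraries lay inside the control range. Neurod1delUCE (723, 1652 and 399 CPM) and Neurod1delECD (710.5, 1715 and 469 CPM) each held a library above and a library below that range. The log2 difference was −0.17 with Neurod1 (95% interval −1.07 to 0.74) and −0.18 with Ascl1a (−1.15 to 0.78), so a difference of 1 log2 unit was at the edge of what these libraries could show. The type IV chains had fewer reads, with col4a1 at 4.61 to 18.5 CPM and col4a6 at 25.1 to 37.5 CPM in controls.

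In the remaining classes the gene with the most reads is given. Matrilin 4 (matn4), an adaptor protein that links collagen fibrils and proteoglycans, stood at 135, 40.2 and 184 CPM in controls, 24.9, 41.2 and 6.93 CPM with Ascl1a and 38.7, 61.4, 60.9 and 81.3 CPM with Neurod1. The groups overlapped through control 2, with log2 differences of −2.26 (SE 0.84, FDR 0.800) with Ascl1a and −0.98 (SE 0.74, FDR 1.00) with Neurod1. Thrombospondin 1, an adhesive glycoprotein, gave the most reads of its family. THBS1 (ENSDARG00000010785) stood at 33.5, 14.7 and 24.4 CPM in controls, 12.2 to 17.4 CPM with Ascl1a and 6.41 to 18.7 CPM with Neurod1, which overlap. The hemidesmosome collagen col17a1a stood at 1.25 to 13.1 CPM in controls and 1.39 to 4.78 CPM with Neurod1.

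One set of cartilage genes varied between libraries of the same group. Type II collagen, with types IX and XI and matrilin 3, makes the matrix of cartilage and, in fish, of the notochord. The 6 genes COL2A1 (ENSDARG00000069093), col9a1b, col9a2, col9a3, col11a2 and MATN3 (ENSDARG00000069245) were put together after their values were seen, so no test is given. Their summed CPM was 22.4, 4.87 and 388 in controls 1 to 3, 3.57, 575 and 3.84 with Ascl1a and 117, 344, 840 and 199 with Neurod1. With Neurod1delUCE it was 15.6, 7.99 and 11.6, and with Neurod1delECD 161, 2.48 and 78.4. The genes were high or low together within a library, which is how they were chosen. Both the control and the Ascl1a group held 1 high library beside 2 low ones. Other type XI chains of the list did not follow the set throughout. COL11A1 stood at 12.2, 27.7 and 76.4 CPM in controls 1 to 3 and at 47.7, 77.0 and 6.08 CPM in Ascl1a 1 to 3. The chain col11a1b stood at 81.4, 17.4 and 36.3 CPM in controls 1 to 3.

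The cartilage and notochord gene cnmd (chondromodulin), which is not a matrix gene of the list, stood at 2.94, 3.22 and 16.2 CPM in controls, at 0, 22.9 and 1.68 CPM with Ascl1a and at 8.79, 19.4, 32.5 and 8.89 CPM with Neurod1. In each of these groups, the library highest in COL2A1 (ENSDARG00000069093) was also highest in cnmd. The cnmd values of the deleted forms are not given here. This gene is 1 of 12 chondrocyte and notochord markers, whose sum did not follow the collagen set throughout. The sum was 236, 168 and 414 CPM in controls 1 to 3 and 303, 276 and 166 CPM in Ascl1a 1 to 3. It was highest in Neurod1delUCE 1, at 679 CPM. The notochord factor tbxta was at 5.38 CPM in Ascl1a 2 and at 0 and 0.0936 CPM in the other Ascl1a libraries, and its part in these values was not tested. The duplicate COL2A1 (ENSDARG00000011407) did not follow the set. It stood at 40.4, 25.6 and 38.5 CPM in controls and at 34.1, 12.8 and 2.53 CPM with Ascl1a.

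**Figure D4:**
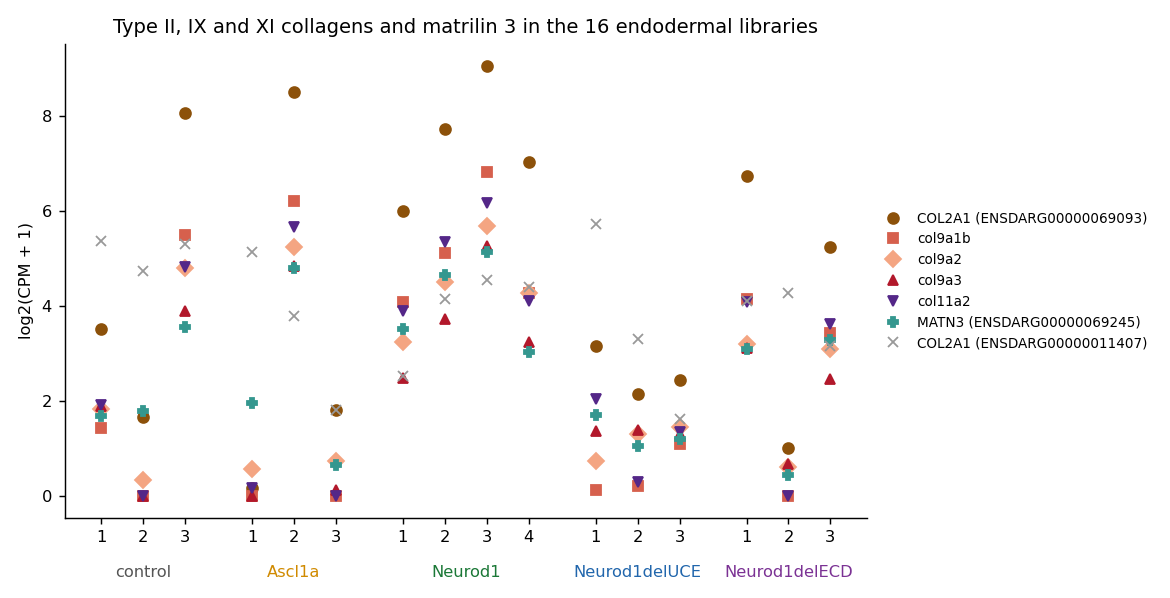
Log2(CPM + 1) of type II, IX and XI collagen genes and matrilin 3 in the 16 endodermal libraries, with the second COL2A1 identifier beside them. COL2A1 (ENSDARG00000069093) stands at 265 CPM in control 3 and 361 CPM in Ascl1a 2, and no other library of those groups exceeds 10.4 CPM.

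The study also asked whether the deleted forms differ from intact Neurod1. Over the 79 genes the median log2 difference of the 6 libraries with a deleted form from the 4 Neurod1 libraries was 0.12, against 0.01 over all genes, and 35 of 79 lay below 0 (background 48.9%). The sign of that median turned without Neurod1delUCE 1 (−0.26), with voom (−0.27) and with a replicate block (−0.07). edgeR (background 0%), DESeq2 (background 0.133%) and voom (background 0.0159%) called 0 matrix genes. At an unadjusted p under 0.05, 7 were lower (background 2.04%) and 1 higher (background 1.9%). The 7 lower ones were col9a2, COL2A1 (ENSDARG00000069093), both MATN3 identifiers, COL11A1, col4a3 and POSTN (ENSDARG00000043806). col9a2 was at 8.48, 21.9, 50.5 and 18.5 CPM with Neurod1 and at 0.532 to 8.18 CPM with the deleted forms, the only gene of the 79 whose groups did not overlap (background 0.476% of all genes lower). Its log2 difference was −2.89 (SE 1.15), that of MATN3 (ENSDARG00000069245) −2.43 (SE 0.92) and that of COL2A1 (ENSDARG00000069093) −3.16 (SE 1.497), each with an FDR of 1.00. Neurod1 3 held the highest level of each of these 3 genes among the endodermal libraries.

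Between the deleted forms themselves, Neurod1delUCE minus Neurod1delECD, the median was 0.19 against 0.05 over all genes, with 28 of 79 below 0 (background 46.7%), −0.89 without Neurod1delUCE 1 and −1.12 with voom. edgeR, DESeq2 and voom called 0 matrix genes (background 0%, 0.00353% and 0%), and at an unadjusted p under 0.05, 3 were higher and 2 lower (background 1.48% and 1.68%). POSTN (ENSDARG00000043806) was the only gene without overlap (background 3.68% lower), at 8.38, 14.4 and 4.5003 CPM with Neurod1delUCE and at 35.6, 21.8 and 15.2 CPM with Neurod1delECD. Its log2 difference was −1.42 (SE 0.57, FDR 0.999). For the type IV chain col4a2, the value of 3.22 (SE 1.34) came from Neurod1delUCE 1 (23.6 CPM against 0.699 and 0.433 CPM in its group) and was −0.60 without that library.

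Between Neurod1 and Ascl1a, the median of the 79 was 0.29 against 0.03 over all genes, and 29 lay below 0 (background 47.9%). edgeR called 0 of them (background 0.037%), 5 were higher with Neurod1 and 0 lower at an unadjusted p under 0.05 (background 3.23% and 2.14%), DESeq2 called 1 (background 0.786%) and voom 0 (background 0.0687%). The DESeq2 call was col23a1b, at 2.31, 0.754, 2.75 and 1.57 CPM with Neurod1 and at 0.119, 0.0612 and 0 CPM with Ascl1a (edgeR log2 difference 4.79, SE 1.08, FDR 0.272; DESeq2 FDR 0.0222). Groups did not overlap for 6 genes that were higher with Neurod1, a share of 7.59% that is close to the background of 5.03%. They included lum, THBS4 and cilp2, the last at 0.231 to 0.666 CPM with Neurod1 and at 0 CPM with Ascl1a. No overlap was seen for 0 lower genes (background 3.7%). THBS4 gave a log2 difference of 2.41 (SE 0.89, FDR 0.8286).

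In EECs, the question was whether loss of the conserved core of Neurod1 altered the sorted cells. Only 43 of the 91 matrix genes had enough counts to be tested. Their median log2 difference, mutant minus WT, was 0.13 against 0.02 over all 16154 genes, with 18 below 0 (background 48.5%). The median was −0.50 with voom and 1.37 without EEC WT 2. edgeR called 0 of them, where it called 0.0186% of all genes (FDR at most 0.1 and mean above 10 CPM). At an unadjusted p under 0.05, 1 was higher and 0 lower (background 2.24% and 1.45%), DESeq2 called 1 (background 0.487%) and voom 0 (background 0.136%). The gene in question was fn1a. It stood at 0.304, 1.01 and 0 CPM in WT and at 40.8, 0.804, 37.5 and 4.34 CPM in mutants, so mutant 2 lay inside the WT range. edgeR's log2 difference was 5.53 (SE 1.62, FDR 0.987), and DESeq2's 5.57 (FDR 0.00830).

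Mutants 1 and 3, with the high fn1a, were also high in fibrillar collagens. col1a2 stood at 137, 1.61, 239 and 21.8 CPM in mutants 1 to 4 and at 2.51, 23.9 and 20.7 CPM in WT, a log2 difference of 2.64 (SE 1.26, FDR 1.00). col5a1 stood at 189.6, 1.21, 188 and 9.28 CPM in mutants and at 7.30 to 26.2 CPM in WT. The same pair of mutants led for col1a1a (326 and 469 CPM), although 1 WT library stood between them at 359 CPM. The 14 fibroblast and mesenchyme markers summed to 28.4, 14.3, 42.8 and 18.6 CPM in mutants and to 26.8, 47.9 and 13.7 CPM in WT. PRRX1 (ENSDARG00000033971), twist2 and tbx18 were at 0 in all 7 EEC libraries, and pdgfra was the marker with the most reads, at 2.11 to 26.8 CPM. The neuron and neural crest markers summed to 744, 196, 815 and 220 CPM in mutants and to 276, 226 and 193 CPM in WT. The endothelium markers summed to 10.1, 4.22, 10.7 and 1.01 CPM in mutants and to at most 3.95 CPM in WT. The endoderm and gut list also put mutants 1 and 3 highest, and no other marker list did so. The hepatocyte markers summed to 125, 26.8, 255 and 68.5 CPM in mutants and to 20.5, 3446 and 16.9 CPM in WT. The fibroblast and hepatocyte lists were highest in WT 2, the library with col1a1a at 359 CPM, and next highest in mutants 3 and 1. The part of these markers was not tested.

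Of the laminin chains, lama4, an alpha chain of vascular basement membranes, stood at 10.9, 10.1 and 28.1 CPM in WT and at 3.87, 2.31, 0.0768 and 6.25 CPM in mutants (log2 difference −2.40, SE 1.11, FDR 1.00). It was 1 of 3 genes without overlap between the groups (background 3.27% lower), with LAMB1 (ENSDARG00000101209) and col6a4a. The gamma chain lamc1 gave −0.84 (SE 0.42, FDR 1.00), from 56.8 to 94.6 CPM in WT and 23.9 to 60.7 CPM in mutants. The beta chain lamb2 stood at 4.22 to 9.42 CPM in WT and at 38.9, 6.53, 0.230 and 5.55 CPM in mutants. Here mutants lay both above and below the WT range. The type XXVIII chain col28a2a stood at 0.0760, 12.9 and 4.88 CPM in WT and at 76.1, 11.5, 30.3 and 5.55 CPM in mutants, with mutants 1 and 3 again the high pair (log2 difference 2.37, SE 1.25, FDR 1.00).

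The matrix genes differed most between WT EECs and the endodermal controls, which were compared in 1 fit of all 23 libraries. Of the 80 matrix genes tested, 39 were called lower in EECs (48.8%), where 22% of all 20397 genes were called lower, and 0 were called higher, where 16.1% of all genes were. The 10 tested genes with no read in WT EECs passed the filter on low counts through other groups and could only be lower. The share of 48.8% is therefore a description and not a test of the set. The unadjusted p was under 0.05 for 43 lower and 0 higher genes (background 23.5% and 17.2%). The median was −2.77 on the log2 scale, or −2.72 with the 10 genes that had no read in WT EECs set at their bound, against −0.19 over all genes. Groups did not overlap for 46 lower genes (background 28.2%) and for 1 higher gene (background 20.5%). DESeq2 called 48 lower (background 23.6%) and 0 higher, of which 39 were shared. With voom, 52 were called in either direction (background 47.5%), of which 33 were shared. Without EEC WT 3 the count was 22, all of them among the 39. The groups differ in age, reporter, dissection, enzyme and heat shock, so these cannot be told apart from the cell type. The endodermal controls also hold muscle, blood and mesenchymal RNA, as given above. Other marker lists were not lower in WT EECs, each on the scale of its own experiment. The tendon list summed to 98.2 to 162 CPM in WT EECs against 28.4, 16.7 and 45.15 CPM in controls. The chondrocyte and notochord list summed to 414 to 509 CPM against 236, 168 and 414 CPM. The epidermis list overlapped, at 1981 to 4709 CPM against 2714, 5704 and 9659 CPM. The part of these lists was not tested. The fibroblast and mesenchyme markers called in this comparison were 7 of 13, all lower in EECs (22% of all genes), and their part in the matrix result was not tested.

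The fibronectin gene fn1a and the laminin genes lama1 and LAMB1 were among the called genes. fn1a stood at 106, 143 and 117 CPM in controls and at 0.288, 0.937 and 0 CPM in WT EECs on the scale of the joint fit, a log2 difference of −8.16 (SE 1.13, FDR 2.58e-05). The paralogue fn1b was not called (−0.97, SE 1.13, FDR 0.551) and stood at 13.2, 85.0 and 0 CPM in EECs. Without EEC WT 2, the library at 85.0 CPM, fn1b was called (−3.27, FDR 0.0645). The alpha chain lama1 stood at 44.0 to 65.1 CPM in controls and at most at 0.852 CPM in EECs (−7.05, SE 1.07). LAMB1 (ENSDARG00000101209) stood at 135 to 253 CPM in controls and at 10.8 to 12.9 CPM in EECs (−3.91, SE 0.65).

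Other laminin chains had smaller differences. lama5 was lower in EECs by a smaller amount, at 36.9, 37.1 and 23.6 CPM against 125 to 202 CPM (−2.32, SE 0.64, FDR 0.00947). lamc1, the gamma chain of most laminin trimers, stood at 56.2, 52.8 and 89.3 CPM in EECs against 112 to 174 CPM and was not called in edgeR (−1.08, SE 0.51, FDR 0.116). It was called lower with voom (−1.25, FDR 0.0293) and with only the groups compared (−1.02, FDR 0.0567). Of the 23 basement membrane genes, the laminins with types IV, XV and XVIII, 21 were tested and 7 called lower (22% of all genes). The type IV chains were not among the 7, with col4a1 at −1.73 (SE 1.26), col4a5 at −1.81 (SE 0.94) and col4a6 at −1.57 (SE 1.03). col18a1a was, at 505, 956 and 879 CPM in controls and 45.4, 40.8 and 7.25 CPM in EECs (−4.63, SE 0.78, FDR 0.000184).

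**Figure D5:**
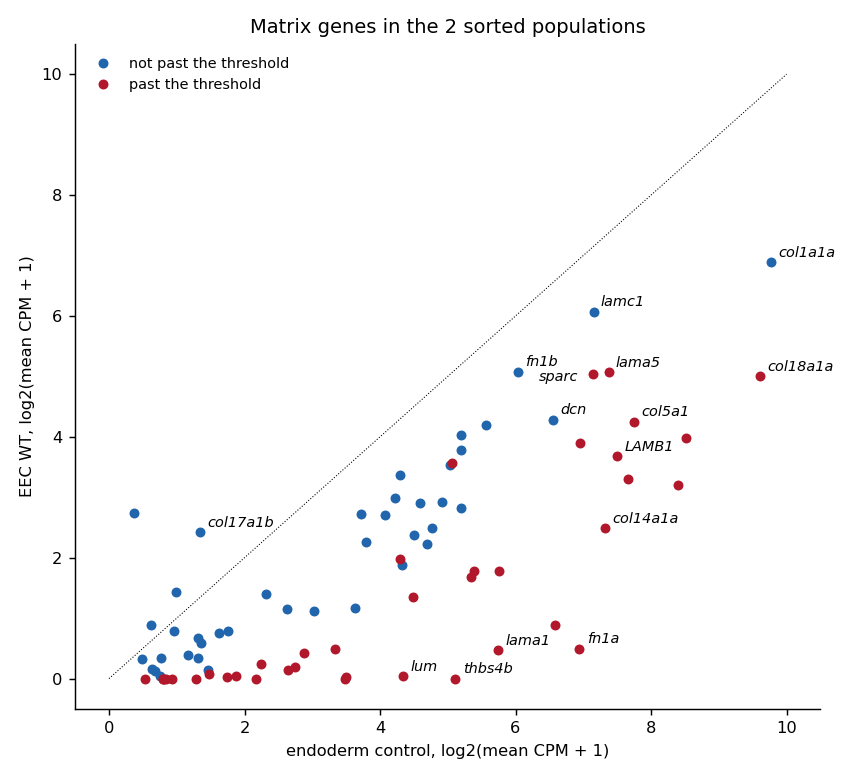
Log2(mean CPM + 1) of each matrix gene in wild-type EECs (vertical) against endodermal controls (horizontal), with the genes that passed the threshold in red and the line of equal level. The 39 red points all lie below the line, with fn1a, lama1 and thbs4b close to the horizontal axis, and col17a1b lies above it without passing the test.

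Of the fibrillar collagens, 8 of 14 tested were called lower (22% of all genes), col1a1b, col1a2, col5a1 and COL5A2 among them. col1a2 stood at 618, 143 and 331 CPM in controls and at 2.37, 22.2 and 19.6 CPM in EECs (−4.61, SE 1.45, FDR 0.0214). col1a1a was not called (−2.87, SE 1.601, FDR 0.184), with WT EEC library 2 at 333 CPM beside 7.04 and 11.9 CPM in the others. Among the FACIT collagens 7 of 11 were lower (22% of all genes), with col14a1a at −5.08 (SE 1.01) and COL12A1 (ENSDARG00000078322) at −4.05 (SE 1.09). matn4 was called lower too (−3.12, SE 1.04, FDR 0.0279), and THBS1 (ENSDARG00000010785) was not called (−2.74, SE 1.27, FDR 0.109).

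For several called genes EECs had almost no reads. thbs4b had none in the 3 WT EEC libraries and stood at 17.8 to 56.0 CPM in controls, at least 406-fold higher on average, and at least 215-fold in the lowest control, against a floor of 3 counts over the group. col9a2 had none either, but its controls were uneven, at 2.66, 0.261 and 27.6 CPM. lum had 1 read in EECs and stood at 40.6, 7.30 and 9.97 CPM in controls. The anchoring fibril gene col7a1 also had 1 read, against 0.380, 2.69 and 3.91 CPM. Counting intervals and floors cover counting error only, because the libraries carry no molecular identifiers.

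Of the 80 tested genes, 76 had a log2 value below 0 (background 54%) and 4 above it, and none of the 4 passed in edgeR. One of them was col17a1b, a collagen of the hemidesmosome, which fixes epithelial cells to the basement membrane. It stood at 6.18, 2.90 and 4.05 CPM in EECs and at 1.22, 1.57 and 1.83 CPM in controls (1.52, SE 0.94, FDR 0.234), without overlap. With voom, col17a1b was called higher (1.62, FDR 0.0705). SPARC was called lower (−2.12, SE 0.83, FDR 0.0606) although its groups overlapped, at 9.78, 71.3 and 14.7 CPM in EECs and 66.5 to 230.5 CPM in controls. That call was lost without EEC WT 1, EEC WT 3 or control 1.

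The genes that process, bind and break down the matrix were taken from 5 lists, of collagen synthesis, basement membrane partners, integrins, matrix breakdown and other matrix proteins. With Neurod1 against control, edgeR and voom called 0 of 139 list genes (background 0.0423% and 0.0635%) and DESeq2 0 of 165 (background 0.557%). In edgeR, 3 were higher and 6 lower at an unadjusted p under 0.05 (2.31% and 1.94% over all genes). The gene of smallest p in each list was FREM2 (ENSDARG00000076856, −0.90), the lysyl hydroxylase plod2 (1.76), itgb6 (0.94), the collagen-degrading protease ctsk (0.95) and cilp (−2.30), with FDRs of at least 0.840.

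With Ascl1a, edgeR and voom again called 0 of the 139 (background 0.0159% and 0.0106%). In edgeR, 1 was higher and 23 lower at an unadjusted p under 0.05 (2.46% and 3.65% over all genes). DESeq2 called 4 of 165, all lower (background 0.453% in either direction). The 4 were bmp1a, a procollagen protease (−3.52, FDR 0.0386), the integrin chain itga9 (−2.60, FDR 0.0815), cilp (−2.80, FDR 0.0982) and the elastic fibre gene efemp2a (−4.11, FDR 0.0460). In edgeR's fit the smallest p of the remaining lists belonged to FREM1 (−2.95), MMP11 (−4.24) and TNC (ENSDARG00000078362, −4.24), the gene of tenascin C.

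Between mutant and WT EECs, edgeR called 0 of 87 list genes (background 0.0186%). At an unadjusted p under 0.05 in edgeR, 2 were higher and 2 lower (2.24% and 1.45% over all genes). DESeq2 called 1 of 160 (background 0.487%) and voom 1 of 87 (background 0.136%). Both called the integrin gene itga6l. It stood at 11.2, 13.3 and 0.698 CPM in WT EECs and at 98.6, 88.9, 164 and 139.6 CPM in mutants, without overlap, and gave 3.85 (SE 0.78, FDR 0.420) in edgeR, 3.86 (FDR 0.000167) in DESeq2 and 3.65 (FDR 0.0646) in voom. Without the filter on low counts edgeR called it too (3.87, FDR 0.0205). The leading genes of the other lists were NID2 (−2.39), P4HA1 (1.73), mmp11b (6.99) and fbln1 (−4.97), each with an FDR of 1.00.

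Between WT EECs and endodermal controls all 5 lists held called genes. Over all genes 22% were lower and 16.1% higher in this comparison, and the counts below are read against those shares. Of 38 genes for collagen synthesis, folding and cross-linking, 14 were lower and 1 higher. The lower ones included both SERPINH1 identifiers, the collagen chaperone HSP47 (−3.66, SE 1.49, and −3.99, SE 1.17), the prolyl hydroxylases p3h1 (−3.47, SE 0.99) and P4HA1 (−2.56, SE 0.57) and the cross-linking enzyme LOXL2 (−5.20, SE 1.15). plod2 was the one that was higher (2.65, SE 0.70, FDR 0.00730), at 22.7 to 40.4 CPM in EECs against 2.61 to 7.44 CPM in controls, each on the scale of its own experiment.

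The integrins, the cell's receptors for this matrix, held 9 lower and 4 higher genes of 30, shares near those over all genes. The fibronectin receptor chain itga5 fell (−3.69, SE 0.77) and the hemidesmosome chain itgb4 fell (−3.42, SE 1.03), whereas itga6l (5.33, SE 1.00), ITGA3 (3.16, SE 1.09), itga3a (0.99, SE 0.34) and itgb5 (1.99, SE 0.65) rose. Of 13 partners of the basement membrane 3 were lower, a share near that over all genes, namely NID2 (nidogen 2, −4.03, SE 0.60), agrn (agrin, −2.80, SE 0.65) and fras1 (−2.45, SE 0.44). In matrix breakdown 7 of 23 were lower and only adamts5 higher (6.03, SE 1.99).

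Of 44 other matrix proteins, 18 were lower and 3 higher. The 18 held 5 identifiers named MFAP4, which macrophages express in zebrafish, along with CTHRC1, fbln5, ecm2 and epyc. The 3 that rose were all relatives of SPARC, namely spock1 (4.78, SE 1.11), spock3 (4.33, SE 0.76) and sparcl1 (4.66, SE 1.58), which are known from neural and secretory tissue. spock3 stood at 197, 222 and 254 CPM in WT EECs and at 127, 222, 253 and 132 CPM in mutant EECs, against 4.87 to 14.5 CPM in the endodermal controls.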

How the data were processed

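RNA of sorted cells was amplified with Smart-seq2, made into libraries with Nextera XT and sequenced as single reads on a HiSeq 2000. Per the labels and the study's methods, the authors aligned reads with STAR 2.5.4b to GRCz11 with Ensembl annotation and deposited raw read counts per gene, 1 table a library. The strand setting is not given in the sources used here, so antisense and overlapping genes cannot be told apart. Identifiers were paired with symbols through a name table and names in the study's tables (29194 of 31902). No sequence of these genes was given, and none is printed.

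Counts were analysed in R 4.3.3 with edgeR 4.0.16 (filterByExpr, TMM, quasi-likelihood test, two-sided), in 1 fit of the 16 endodermal libraries (18911 genes, 79 of the 91 matrix genes), 1 of the 7 EEC libraries (16154 and 43) and 1 joint fit of all 23 (20397 and 80). Genes with an FDR of at most 0.1 over all genes tested were called, and in the EEC comparison also with a mean above 10 CPM. A gene that passed the filter only through the group where it is high had to differ, so counts over tested matrix genes are descriptions. Levels are TMM-normalized CPM, the floor is 3 counts, and 95% intervals of fitted differences span 1.96 standard errors on each side. For edgeR the standard error was taken as the size of the log2 difference over the square root of the test's F statistic. These intervals are therefore approximate, and with so few libraries they may be too narrow. Alternatives were DESeq2 1.42.0, limma 3.58.1 (voom with sample quality weights), RLE factors, no filter, an FDR of 0.05, no CPM minimum, only the groups compared, a replicate block and each library left out in turn.

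The matrix genes, marker lists and pathway lists were chosen with earlier results of these data known. Matrix genes named with values were those called in any comparison (up to 12 each), the one with most counts in each class, fn1a, fn1b, lum, dcn, POSTN, sparc and cilp2, and in each comparison the 2 of smallest p in each direction, with chains of the same type beside them and a few added after their values were seen. Of each pathway list the gene of smallest p was named. Results of 1 matrix gene are not reported here. Replicate numbers paired the samples only between Neurod1delUCE and Neurod1delECD, by the correlations of their deviations (0.27, 0.48 and 0.28), as the labels name no shared batch. Replicates differed by more than counting error (chi-square per degree of freedom 51.4 or more), so each library counted as 1 sample. The test was checked on simulated counts.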

Additional observations from a re-analysis of the deposited data

Results flagged for a closer look

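In the groups of 4 libraries, the highest or lowest library lay far from the other 3 for 18 of the 98 gene and group pairs examined. The rule flags about 5% by chance only for normally distributed values, so no excess is read from this count. A gene with no read in 3 libraries of its group is flagged whatever its level in the remaining library. Of the 18, 16 were in mutant EECs.

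In mutant EEC 1, lama5 stood at 63.6 CPM (others 5.83 to 11.5), lamb2 at 38.9 (0.230 to 6.53), POSTN (ENSDARG00000043806) at 10.1 (all 0), col4a6 at 9.01 (up to 0.302), col8a2 at 3.65 (up to 0.101), col4a2 at 3.35 (up to 0.303), THBS4 at 2.23 (up to 0.307) and THBS3 (ENSDARG00000012060) at 1.79 (up to 0.101). There, cilp2 stood at 0.149 CPM and col7a1 and col4a3 at 0.0745 CPM, with no read in the others. In mutant EEC 3, lum stood at 101 CPM (others 0 to 10.4). In mutant EEC 4, fn1b stood at 113 CPM (6.13 to 22.6), thbs2b at 3.53 (up to 0.302) and col21a1 at 0.101 (all 0). In mutant EEC 2, COL2A1 (ENSDARG00000069093) stood at 0.704 CPM, with no read in the others.

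Among the Neurod1 libraries, lama5 was highest in Neurod1 2 at 98.4 CPM (others 42.9 to 49.98), and col1a1b was lowest in Neurod1 1 at 38.1 CPM (others 78.5 to 84.0).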

How the results depend on the processing

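edgeR called 0 matrix genes in the 8 comparisons within an experiment, and other tools moved some of these counts. DESeq2 called 3 with Neurod1, 6 with Ascl1a and 1 each with Neurod1delUCE, between Neurod1 and Ascl1a and between the EEC groups. A fit of only the groups compared called 1 with Neurod1. The causes were not tested. For WT EECs against endodermal controls the count of 39 became 24 at an FDR of 0.05, 27 with only the groups compared, 48 with DESeq2, 52 with voom and 22 to 40 with each library left out.

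Medians over matrix genes moved by more than the spread with voom, to −1.60 (Neurod1delUCE against control), −0.27 (deleted forms against Neurod1), −1.12 (Neurod1delUCE against Neurod1delECD) and −0.50 (EECs), and without Neurod1delUCE 1, to −1.93, −0.26 and −0.89 in the first 3. Without EEC WT 2 the EEC median was 1.37 and that of EECs against endoderm −4.55.

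Of single genes, 12 values changed sign. With Ascl1a, col7a1 became −0.23 and col8a2 −0.70 with voom, and −1.32 and −1.72 without Ascl1a 1. col23a1b became −0.13 without Neurod1delUCE 2. With Neurod1delECD, col18a1a became −0.086 with voom and −0.40 without replicate 2, and col21a1 −0.41 without replicate 3. Between the deleted forms, col16a1 became −0.24 and NID1 (ENSDARG00000103129) −0.12 with voom, and without Neurod1delUCE 1 NID1 (ENSDARG00000103129) became −0.30 and col4a2 −0.60. With each library left out, these values ran from −1.32 to 2.29 (col7a1), −1.72 to 2.23 (col8a2), −0.13 to 1.75 (col23a1b), −0.40 to 0.65 (col18a1a), −0.41 to 1.35 (col21a1), −0.60 to 3.80 (col4a2) and −0.30 to 2.25 (NID1). SPARC in EECs against endoderm lost its call with only the groups compared (−2.05), at an FDR of 0.05, and without EEC WT 1, EEC WT 3 or control 1. Of the other values of named genes, 1567 kept their sign and side of the threshold and 23 passed it where the reported value did not.

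A replicate block left 0 matrix genes called in each of the 8 comparisons, with medians of −0.66 (Neurod1), −1.18 (Ascl1a), −1.03 (Neurod1delUCE), −0.93 (Neurod1delECD), 0.64 (Neurod1 against Ascl1a), −0.07 (deleted forms), 0.14 (between them) and 0.32 (EECs). Correlations of deviations between libraries of the same number ran from −0.39 to 0.48 over 30 endodermal pairs, with 14 over 0.1, and from −0.09 to 0.03 over 3 EEC pairs. Only between Neurod1delUCE and Neurod1delECD were all 3 over 0.1. The block gave all endodermal groups a common replicate effect, so its unchanged calls are no test of that pairing by itself. No paired analysis was possible for WT EECs against endodermal controls because the numbers belong to different experiments.

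Depth limits the low genes, since 3 counts correspond to 0.135 to 0.359 CPM per library.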
